A study of Rattus norvegicus with 44 samples.

Results

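Wnt16 and 7 other Wnt ligands (Wnt2, Wnt4, Wnt5a, Wnt7a, Wnt7b, Wnt9a and Wnt10a) were followed through the dentate gyrus of 44 male Fischer 344 (F344) rats. They are 8 of the 18347 gene identifiers in the normalized expression table and 8 of its 18 Wnt ligands. Each was found by its symbol, and its rows were summed by gene identifier. Wnt16 was chosen by its normalized level, which was lower in the older rats than in YNG, so its values against the young rats are given as a description and were not tested. The other ligands were chosen with earlier results of these data known. The study asked whether drugs that clear senescent cells, given by mouth, alter the hippocampus during aging. The young group (YNG) held 10 rats given vehicle and labelled 6 months old. The older rats were labelled 12 months old, the age at which treatment began, and were about 18 months old when tissue was taken. They received by oral gavage vehicle (AV, 12 rats), ABT-263 at 12 mg/kg (AA, 11 rats), or dasatinib at 1.2 mg/kg together with quercetin at 12 mg/kg (ADQ, 11 rats). A cycle was 5 days of dosing, with 8 cycles before behavioral testing and a final round after it. Each rat gave 1 poly(A) RNA library from the dentate gyrus of a single hemisphere, sequenced to an estimated 10166556 to 24328321 counted reads.

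Wnt proteins are secreted, lipid-bearing ligands that bind Frizzled receptors together with co-receptors such as Lrp5 and Lrp6. In the canonical branch the bound receptor spares beta-catenin from degradation, and beta-catenin then acts with TCF/LEF factors in the nucleus. Other branches act on cell polarity, the cytoskeleton and calcium. In the dentate gyrus, Wnt signaling is known for its part in the proliferation and maturation of new granule neurons. It is also known for its part in the formation and upkeep of synapses. Secreted inhibitors such as Wif1 and some members of the Dickkopf family hold it in check.

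The stretch of DNA just before a gene's start is shown for Wnt16, the ligand with the lowest older-to-young ratio here, and for Wnt4, the ligand whose lowest values were in the rats with few granule cell markers described further on. Both are the 250 bases before the RefSeq start in the GRCr8 assembly, read on the plus strand at chr4:51786478-51786727 for Wnt16 and chr5:154797200-154797449 for Wnt4. Capitals mark matches on either strand to 4 motifs that were searched: the TCF/LEF core CTTTGA, the GC box GGGCGG, the TATA box TATAAA and the E box CACGTG.
Wnt16: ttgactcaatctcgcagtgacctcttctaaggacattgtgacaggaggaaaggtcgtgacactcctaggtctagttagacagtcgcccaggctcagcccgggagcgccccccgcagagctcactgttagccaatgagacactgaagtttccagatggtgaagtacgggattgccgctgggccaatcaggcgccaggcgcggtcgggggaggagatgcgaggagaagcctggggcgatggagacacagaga
Wnt4: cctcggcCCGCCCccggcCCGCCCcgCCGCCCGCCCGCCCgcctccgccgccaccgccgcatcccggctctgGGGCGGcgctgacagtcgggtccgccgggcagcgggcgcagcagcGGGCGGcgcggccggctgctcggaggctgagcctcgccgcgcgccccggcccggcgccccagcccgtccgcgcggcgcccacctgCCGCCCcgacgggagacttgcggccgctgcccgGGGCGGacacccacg
None of the 4 motifs was found in the Wnt16 window, whereas the Wnt4 window held 9 GC boxes, some of which overlap. Of 33469 windows of this length in the RefSeq table, 30.5% held a GC box, 13.9% the TCF/LEF core, 12.9% the TATA box and 5.59% the E box. GC content was 58.8% for Wnt16 and 86.4% for Wnt4, against a median of 51.2%. A match describes letters only. The table held a window for 7 of the 8 genes, all but Wnt7b.

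The markers of the labelled tissue were present in every rat, though unevenly: Prox1, a transcription factor of dentate granule neurons, ran from 609 to 3811 normalized units (mean 2515), and C1ql2, a mossy fiber synapse protein, averaged 5952, while the granule markers Lct and Tdo2 were near 0. Rat numbers were put here into 2 series. The first held 6 YNG, 6 AV, 5 AA and 5 ADQ rats, and the second 4 YNG and 6 of each older group. The young rats carry numbers of their own (V1 to V6 and V9 to V12), so joining them to the series of older rats is an assumption, and every value against YNG within a series rests on it. In the second series the AV rats (4566 to 4572) have a block of numbers apart from the treated rats (4031 to 4110). Joining these 2 blocks is also an assumption, and number block and treatment cannot be told apart there. The labels name no batch. A further 4 older rats stood apart: AV 3989, AV 4571, AA 3996 and AA 4107. The summed granule cell markers of these rats were 7365, 9134, 6785 and 4264, against 10455 to 17875 in the other 40. Their summed oligodendrocyte markers were 143553 to 172260, against 41421 to 116463 in the others. Their summed CA3 and mossy cell markers, 1539 to 1950, were also below those of the other 40 rats, at 1973 to 7195. The summed markers of CA1 pyramidal cells, which the dentate gyrus lacks, were 28793, 21532, 19746 and 44571 in these rats, against 1912 to 25877 in the others and group medians of 7566 to 10832. Low granule markers beside CA1 markers well above the group medians go against the labelled tissue in these 4 libraries. Whether such rats hold fewer granule cells in the dissected piece or less RNA per cell cannot be told apart in bulk tissue, and whether CA1 tissue in the dissected piece had a part in any difference was not tested. Calls that end without these 4 rats are named as such.

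Wnt16, a ligand best known from bone and joint and able to act with and without beta-catenin, had its lower values in the older rats. In YNG it ran from 38.7 to 63.2 normalized units with a median of 50.2 (mean 50.8 ± 7.0, SD, n = 10). In AV it ran from 9.43 to 38.5 with a median of 21.4 (21.7 ± 8.76, SD, n = 12). All 12 AV rats lay below the lowest YNG rat. In AA the values ran from 11.2 to 42.6 with a median of 31.1 (27.8 ± 12.5, SD, n = 11). In ADQ they ran from 17.6 to 45.6 with a median of 31.5 (29.7 ± 8.81, SD, n = 11). The AA and ADQ ranges overlapped that of YNG at their upper ends, with 8 of 11 AA rats and 9 of 11 ADQ rats below the lowest YNG rat. Over all 34 older rats, 29 were below the lowest YNG rat and all 34 were below the YNG median, while 8 of the 10 YNG rats were above every older rat.

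**Figure D1:**
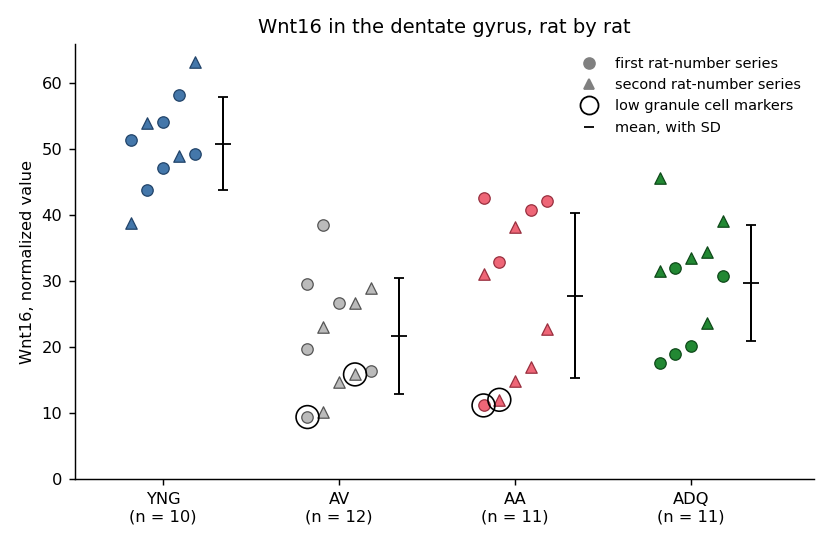
Wnt16 in each rat, in the authors' normalized units on a linear axis from 0, by group (10 YNG, 12 AV, 11 AA and 11 ADQ rats). Circles and triangles are rats of the first and the second rat-number series, bars give the mean with its SD, and large open circles mark the 4 older rats with low granule cell markers, which all lie at or below 15.9.

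On the log2(value + 1) scale, Wnt16 was lower than in YNG by a fitted difference of -1.29 (SE 0.23) in AV, which is 2.44-fold. The difference was -0.98 (SE 0.23) in AA, or 1.98-fold, and -0.80 (SE 0.23) in ADQ, or 1.74-fold. Since these differences chose the gene, no p-value is attached to them. The 3 comparisons share the same YNG rats. Leaving out any 1 rat gave -1.37 to -1.20 for AV, -1.06 to -0.87 for AA and -0.86 to -0.73 for ADQ. Without the 4 rats that stood apart the differences were -1.16, -0.75 and -0.80. Within the first number series they were -1.20, -0.69 and -1.09, and within the second -1.38, -1.23 and -0.56, so the order of AA and ADQ changed between the series. Wnt16 is a gene of few reads: each rat had between 9 and 76 of them (median 30.5), so counting error alone is large in the lowest rats. The relative spread, as SD over mean, was 13.8% (YNG), 40.4% (AV), 45.1% (AA) and 29.6% (ADQ), and no test of that spread was made.

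Among the older groups the Wnt16 means ran ADQ, AA, AV from highest to lowest, and the neighbours in that order did not differ beyond their spread. AA against AV gave 0.30 (95% interval -0.13 to 0.74, limma p = 0.173) and AA against ADQ gave -0.19 (95% interval -0.63 to 0.25, p = 0.412). The ends of the order, ADQ against AV, differed by 0.49 (SE 0.22, p = 0.0307), but not after adjustment over all genes (adjusted p = 0.489). A permutation test of the same difference gave p = 0.0358, or 0.430 after adjustment over the 24 member comparisons among older groups. At this threshold 9.32% of all 15598 genes tested were called between ADQ and AV, 4.51% between AA and AV and 4.53% between AA and ADQ. Wnt16 was the only 1 of the 8 ligands called between ADQ and AV.

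The difference between ADQ and AV was uneven over the number series and depended on single rats. Within the first series ADQ and AV averaged 23.9 and 23.4 (difference 0.11, limma adjusted p = 0.996), and within the second 34.6 and 19.9 (0.82, p = 0.00653, adjusted p = 0.455). Whether the series differed was not tested. AA averaged 33.9 in the first series and 22.7 in the second, so AA lay above ADQ in the first and below it in the second. The YNG rats averaged 50.6 and 51.2 in the same series. The unadjusted p passed 0.05 when AV 3989 (0.0718), AV 4569 (0.0509), AV 4572 (0.0687), ADQ 4031 (0.0547) or ADQ 4105 (0.0644) was left out, and without the 4 rats that stood apart it was 0.0776 for a difference of 0.36.

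The 4 rats with low granule markers had Wnt16 at 9.43 (AV 3989), 15.9 (AV 4571), 11.2 (AA 3996) and 12.0 (AA 4107), near the bottom of their groups. Without them the mean was 23.5 ± 8.36 (SD, n = 10) in AV and 31.4 ± 10.8 (SD, n = 9) in AA. Over all 44 rats, Wnt16 had a Pearson r of 0.56 with the mean log2 level of the granule markers, or 0.52 as deviations from group means. With the oligodendrocyte markers r was -0.63, or -0.53 as deviations. Leaving out the 4 rats narrows the range of both marker sets. The values that follow also use summed markers and no YNG rats, so they are not directly comparable with those over 44 rats. Over the other 30 older rats, as deviations from group means, the relation of Wnt16 to the granule total did not pass the threshold (Pearson r = 0.046, permutation p = 0.80; Spearman rho = 0.135, p = 0.475; 0.80 and 0.797 after adjustment over 2 marker lists). Without the 2 rats farthest from the median granule total, r was 0.25. Against the oligodendrocyte total r was -0.14 (p = 0.475, adjusted 0.80) and rho -0.049 (p = 0.797, adjusted 0.797), and r without the 2 farthest rats was -0.072. The group medians of the granule total were 15802 (YNG), 12957 (AV), 13422 (AA) and 12796 (ADQ). Its part in the Wnt16 difference between young and older rats was not tested.

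**Figure D2:**
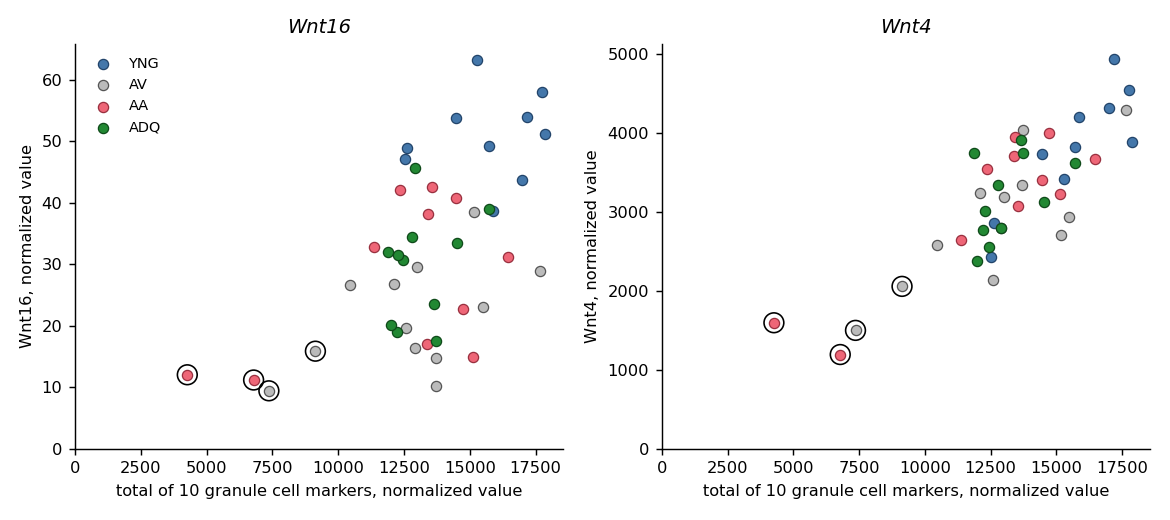
Wnt16 (left) and Wnt4 (right) against the summed granule cell markers of each of the 44 rats, all axes in normalized units from 0. Points are rats colored by group, and the 4 circled rats, with totals of 4264 to 9134, are the 4 lowest rats for Wnt4 but not for Wnt16.

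The genes whose level followed Wnt16 most closely over the 44 rats were Calml4 (Pearson r = 0.74 on log2 values), Dgat2 (0.68), Tspan18 (0.67), Glra2 (0.65) and Sipa1l2 (0.65), taken from 13704 genes with a mean of at least 20. Calml4, a calmodulin-like protein, averaged 210 ± 42.4 (SD, n = 10, YNG), 119 ± 43.5 (n = 12, AV), 128 ± 50.5 (n = 11, AA) and 134 ± 18.4 (n = 11, ADQ). Tspan18, a tetraspanin, averaged 374 ± 48.5 in YNG and 226 ± 51.1 in AV. Dgat2 makes triglycerides, and Glra2 is a glycine receptor subunit. Over the 40 rats without the 4 that stood apart the same 5 genes gave 0.61, 0.47, 0.55, 0.51 and 0.49. These correlations include the step between young and older rats. When each group's mean was taken off first, the closest were Slitrk1 (0.64), Ccn4 (0.64), AABR07032338.1 (0.63), Plppr5 (0.60) and Calml4 (0.60), which fell to 0.45, 0.40, 0.42, 0.34 and 0.26 over the 40 rats. Slitrk1 is a synaptic adhesion protein, and Ccn4, once named Wisp1, is a Wnt-induced matrix protein. Unlike Wnt16, both averaged more in the older groups: Ccn4 was 27.2 ± 4.99 in YNG and 38.9 ± 14.7 in AV. The points share libraries, depth and dissection, and no test is attached to these likenesses.

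Of the 7 other ligands, 3 differed from YNG in AV (Wnt4, Wnt7b and Wnt10a, all lower), where 21.3% of all genes passed the same threshold and 10.7% passed it as lower. In AA 3 differed (Wnt4 and Wnt7b lower, Wnt5a higher), against 26.6% of all genes and 14.1% as lower. In ADQ 3 differed (Wnt7a and Wnt7b lower, Wnt5a higher), against 28.1% and 14.6%. After adjustment over all genes 0 of 7 passed in AV and AA, and Wnt7b alone passed in ADQ, where 2.35%, 3.85% and 7.08% of all genes passed in the 3 comparisons. With 7 genes chosen with results known, these counts are a description. The median difference of the 7 was -0.13 for AV, -0.15 for AA and -0.16 for ADQ. Rescaling every rat to the same total moved the median of all genes against YNG to 0.10, 0.15 and 0.15, and turned the split of higher and lower calls in AV from 1651 and 1675 to 2819 and 655. After it Wnt7b still passed in AV and ADQ, at -0.28 and -0.43, but not in AA, and Wnt4, Wnt10a and Wnt7a passed in none. None of the 8 ligands was at 0 in any rat.

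**Figure D3:**
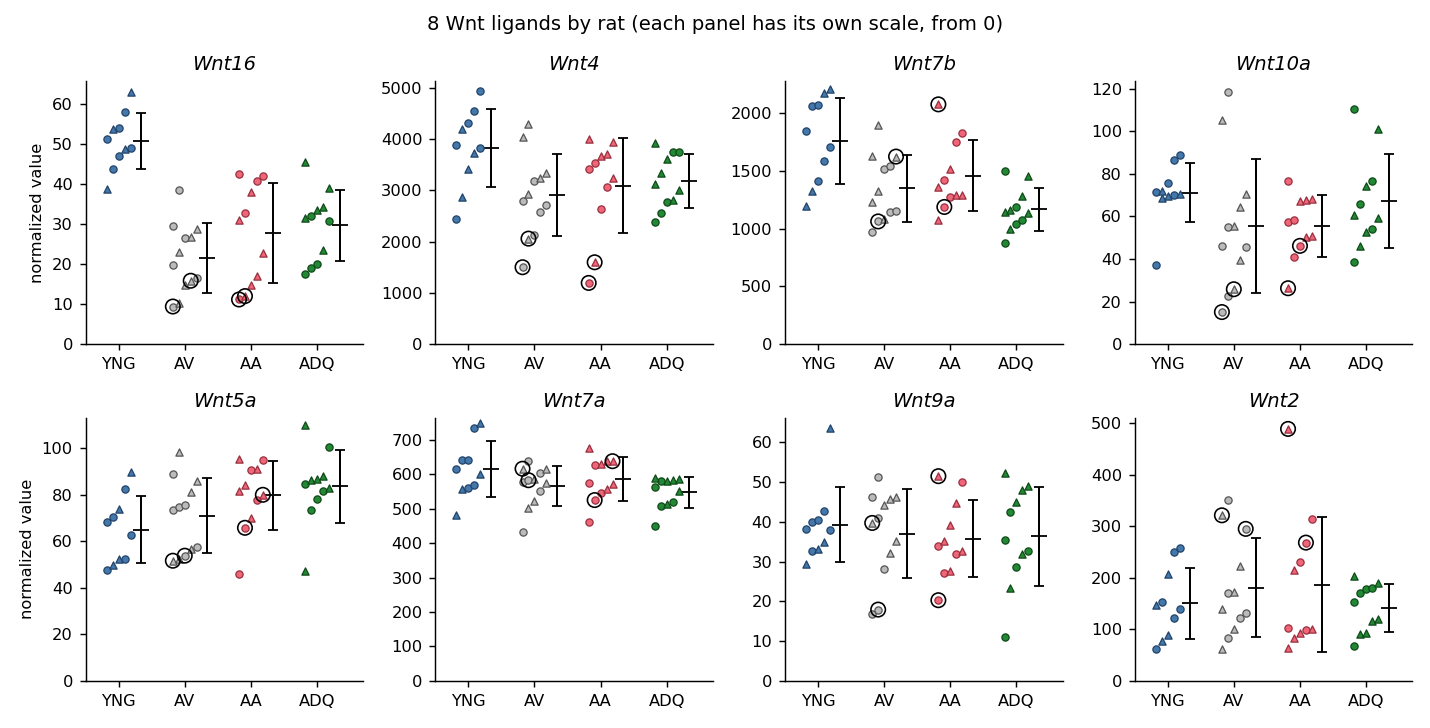
The 8 Wnt ligands in each rat by group, in normalized units, each panel on its own linear axis from 0. Points are rats (circles for the first number series, triangles for the second, large open circles around the 4 rats with low granule markers) and bars the mean with its SD, and Wnt16 is the ligand whose AV rats all lie below the YNG rats.

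Wnt4, a ligand with roles in synapse formation and in organ development, was lower in AV and AA. It ran from 2431 to 4943 in YNG with a median of 3858 (mean 3818 ± 761, SD, n = 10). In AV it ran from 1501 to 4290 with a median of 2866 (2902 ± 800, SD, n = 12). The ranges overlapped widely. The difference was -0.42 (SE 0.17, limma p = 0.0151, adjusted p = 0.144). AA ran from 1195 to 4001 with a median of 3407 (3091 ± 929, SD, n = 11), a difference of -0.36 (SE 0.17, p = 0.0399, adjusted p = 0.165). ADQ ran from 2377 to 3914 with a median of 3123 (3183 ± 527, SD, n = 11), and its difference of -0.25 (SE 0.17, p = 0.146) did not pass. The AA call was lost when any of 9 rats was left out (YNG V1, V2, V3, V4, V5 or V9, or AA 3988, 3996 or 4107), at p up to 0.133. Over all 44 rats, Wnt4 had a Pearson r of 0.67 with the mean log2 level of the granule markers and -0.82 with that of the oligodendrocyte markers. With CA3 and mossy cell markers r was 0.69, and with pericyte and smooth muscle markers -0.72. The 4 lowest rats were those with low granule markers, at 1501 (AV 3989), 2058 (AV 4571), 1195 (AA 3996) and 1597 (AA 4107). All other rats had at least 2133. Without them AV stayed lower (-0.29, p = 0.0170), AA no longer passed (-0.12, p = 0.315) and ADQ passed (-0.25, p = 0.0311). Within the first series the AV difference was -0.69 (limma adjusted p = 0.0381) and within the second -0.12 (adjusted p = 0.968). The table lists Wnt4 in 2 rows, and the smaller made up 17.1% ± 1.98 of the gene in YNG and 15.8% ± 4.24 (SD, n = 34) in the older rats.

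Wnt7b, a ligand with a known role in dendrite growth of hippocampal neurons and in brain vessels, was lower than YNG in each older group. YNG ran from 1193 to 2212 with a median of 1775 (mean 1759 ± 370, SD, n = 10). ADQ ran from 880 to 1502 with a median of 1148 (1170 ± 186, SD, n = 11). The ADQ rats sat low: 8 of 11 were below the lowest YNG rat, all 11 were below the YNG median, and 7 of 10 YNG rats were above the highest ADQ rat. The ADQ difference was -0.57 (SE 0.12, limma p = 2.15e-05, adjusted p = 0.00963). AV ran from 969 to 1897 with a median of 1283 (1350 ± 287, SD, n = 12), a difference of -0.38 (SE 0.12, p = 0.00245, adjusted p = 0.0710). AA ran from 1073 to 2077 with a median of 1364 (1461 ± 305, SD, n = 11), a difference of -0.26 (SE 0.12, p = 0.0342, adjusted p = 0.154). The AA call was lost without any of 10 rats (YNG V1, V2, V3, V9 or V12, or AA 3988, 3996, 4069, 4070 or 4077), at p up to 0.0757. Wnt7b was thus the 1 ligand of the 7 called in all 3 comparisons with the shared YNG rats. Without the 4 rats that stood apart the 3 differences were -0.38 (p = 0.00263), -0.29 (p = 0.0203) and -0.57 (adjusted p = 0.00494). Within the first series they were -0.54, -0.26 and -0.66, and within the second -0.21, -0.24 and -0.48. Only the ADQ difference passed the unadjusted threshold in both series.

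Wnt10a, a canonical ligand known from skin and teeth, was lower in AV alone. It ran from 37.4 to 88.6 in YNG with a median of 71.2 (71.0 ± 13.8, SD, n = 10), and from 15.1 to 118 in AV with a median of 50.7 (55.4 ± 31.3, SD, n = 12). The highest AV rat lay above every YNG rat. The difference was -0.54 (SE 0.23, limma p = 0.0269, adjusted p = 0.179). It no longer passed when AV 3989, AV 3999 or AV 4571 was left out, nor without the 4 rats that stood apart (-0.29, p = 0.157). Wnt10a averaged 55.4 ± 14.5 in AA (-0.37, p = 0.126) and 67.2 ± 22.2 in ADQ (-0.11, p = 0.634, turning to 0.024 with every rat at the same total). Directly compared, AA lay above AV by 0.16 (p = 0.479) and ADQ above AV by 0.42 (p = 0.0717), so AV was not shown to differ from the treated groups.

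Wnt5a, a ligand that signals mostly without beta-catenin, was the only ligand of the 8 called higher than YNG. It ran from 47.8 to 89.8 in YNG with a median of 65.4 (65.0 ± 14.5, SD, n = 10). In ADQ it ran from 47.2 to 110 with a median of 84.4 (83.5 ± 15.7, SD, n = 11), and in AA from 45.8 to 95.4 with a median of 81.5 (79.7 ± 14.8, SD, n = 11). The ranges overlapped at both ends. The difference was 0.36 in ADQ (SE 0.14, limma p = 0.0128, adjusted p = 0.0867) and 0.29 in AA (SE 0.14, p = 0.0408, adjusted p = 0.168). The AA call was lost without any of 11 rats (YNG V1, V2, V6, V9 or V12, or AA 3983, 3988, 4035, 4069, 4070 or 4077), at p up to 0.0872. AV, at 70.8 ± 16.1 (SD, n = 12), gave 0.12 (p = 0.385). With every rat at the same total, the ADQ difference was 0.50 and passed adjustment over all genes (limma adjusted p = 0.0381). The AA difference was then 0.44 (adjusted p = 0.0631). That scaling moved the median of all genes to 0.15 in ADQ and in AA. It also let 2253 of 15603 genes pass adjustment in ADQ, against 1104 of 15598 without it.

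Wnt7a, a ligand tied to synapses and to neural progenitors, ran from 482 to 749 in YNG with a median of 608 (615 ± 81.5, SD, n = 10). It ran from 451 to 590 in ADQ with a median of 563 (548 ± 44.5, SD, n = 11), a difference of -0.16 (SE 0.07, limma p = 0.0352, adjusted p = 0.146). The highest ADQ rat lay below the YNG median. With every rat at the same total the ADQ difference was -0.019. The call was also lost without any of 8 rats (YNG V3, V5, V6 or V9, or ADQ 4005, 4006, 4007 or 4074), at p up to 0.0911. AV averaged 567 ± 57.9 (-0.11, p = 0.124) and AA 586 ± 62.9 (-0.07, p = 0.377), the latter turning to 0.083 at the same total. Of the 8 ligands Wnt7a varied least from rat to rat, with an SD of 8.13% to 13.3% of the mean in the 4 groups.

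Wnt2 and Wnt9a were not called in any comparison. Wnt9a, a ligand known from joint and blood stem cell development, averaged 39.3 ± 9.46 (YNG), 37.01 ± 11.3 (AV), 35.8 ± 9.73 (AA) and 36.3 ± 12.5 (ADQ). Its differences from YNG were -0.13 (95% interval -0.53 to 0.27), -0.15 (-0.55 to 0.26) and -0.18 (-0.59 to 0.23). Wnt2, a canonical ligand known for its role in the lung and in vessels, averaged 151 ± 69.1 (YNG), 181 ± 96.1 (AV), 187 ± 132 (AA) and 142 ± 46.6 (ADQ). Its intervals were wide: 0.22 (-0.38 to 0.82) in AV, 0.16 (-0.45 to 0.78) in AA and -0.02 (-0.63 to 0.60) in ADQ, the last turning to 0.12 with every rat at the same total. Over all 44 rats, Wnt2 had a Pearson r of 0.83 with the mean log2 level of the CA1 markers, and 0.83 as deviations from group means. With oligodendrocyte markers r was 0.69 and with granule markers -0.60. The highest Wnt2 value, 489, was in AA 4107, the rat with the highest summed CA1 markers. Wnt2 was 269 to 322 in the other 3 rats that stood apart. The sign of the AA difference turned without these 4 rats (-0.11).

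Between older groups, 0 of the 8 ligands were called for AA against AV by limma at an unadjusted p of 0.05, and 0 by permutation. Wnt16 alone was called for ADQ against AV, and Wnt7b alone for AA against ADQ, where AA was higher by 0.31 (SE 0.12, limma p = 0.0120, adjusted p = 0.981). A permutation test of the Wnt7b difference gave p = 0.0106, or 0.255 after adjustment over the 24 comparisons. That difference was 0.28 (p = 0.0234) without the 4 rats that stood apart, 0.39 (p = 0.0210) in the first series and 0.24 (p = 0.168) in the second, where the call was lost. Within the second series Wnt16 was called in its place, with AA lower than ADQ (-0.67, p = 0.0230). Wnt5a was higher in ADQ than in AV by 0.24 (95% interval -0.02 to 0.50) and Wnt10a by 0.42 (-0.03 to 0.87), neither past the threshold with all rats. Wnt10a passed when AV 4009, AV 4568, AV 4572 or ADQ 4006 was left out (p = 0.0182 to 0.0489), and Wnt5a when AV 4011, AV 4569 or ADQ 4106 was left out (p = 0.0162 to 0.0499). No ligand passed adjustment over all genes.

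The list of ligands held 19 genes, of which Wnt8a is not in the table used here and Wnt6, at a mean of 2.78, fell below the filter. Of the 17 tested, 9 lie outside the 8 described. Of these 9, 0, 1 and 0 were called against YNG in AV, AA and ADQ. The shares of all genes called were 21.3%, 26.6% and 28.1%. The only call against YNG outside the 8 was Wnt1, lower in AA by 0.67 on the log2 scale (SE 0.30, limma p = 0.0302, adjusted p = 0.144). Its means were 19.3 in YNG and 11.7 in AA. The call was lost with every rat at the same total (-0.53, p = 0.0994), within the first series (p = 0.130) and within the second (p = 0.140). Wnt11 was lower in ADQ than in AV (-0.65, p = 0.0482) and than in AA (0.80 for AA against ADQ, p = 0.0181) at means of only 3.31, 5.78 and 6.01. The difference from AV no longer passed at the same total (p = 0.0631), without the 4 rats that stood apart (-0.56, p = 0.0987), within the first series (-0.18, p = 0.661) or within the second (-1.04, p = 0.0506). Wnt3a was at 36.4 to 71.2 in the 4 rats with low granule markers and at most 34.5 in every other rat. Wnt16 had the lowest fitted difference of the 17 in each of the 3 comparisons with YNG, the property for which it was chosen.

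**Figure D4:**
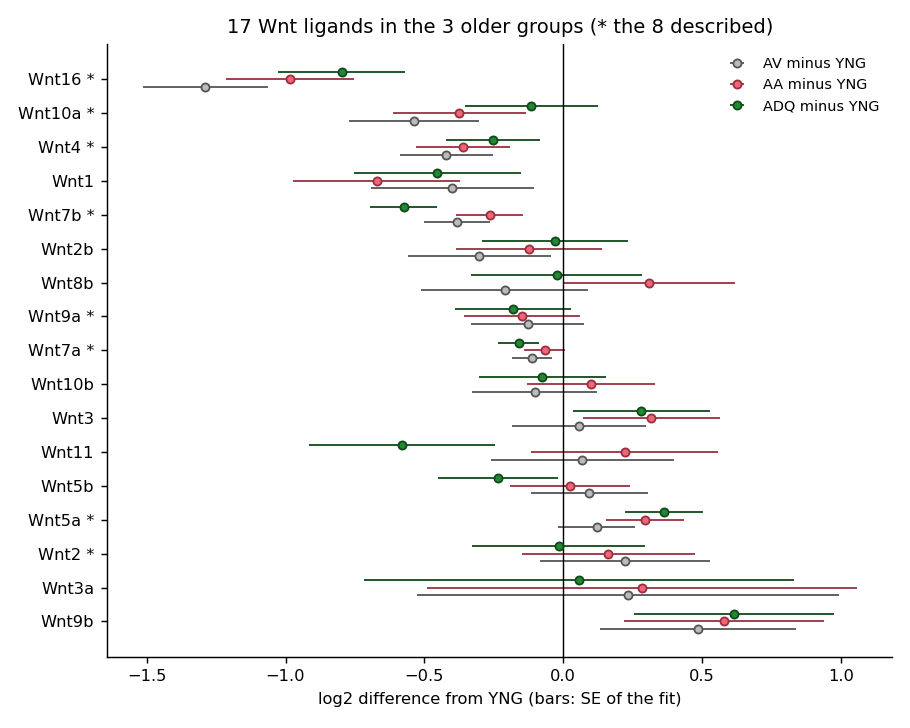
Fitted log2 differences from YNG of the 17 tested Wnt ligands in AV, AA and ADQ, with bars of 1 SE of the limma fit and stars at the 8 ligands described. Wnt16 lies farthest left in each group (-1.29, -0.98 and -0.80), and Wnt5a lies to the right of 0 at 0.12, 0.29 and 0.36.

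Of 112 listed pathway genes other than ligands, 100 were tested. The AV comparison called 18 (13 higher, 5 lower), the AA comparison 28 (18 and 10) and the ADQ comparison 26 (15 and 11), near the 21.3%, 26.6% and 28.1% of all genes. Of all genes 10.6%, 12.6% and 13.5% were called higher, shares that grow when every rat is set to the same total. The counts of each list below stand beside these same shares of all genes. After adjustment 3, 2 and 8 passed. Leaving out AV 4567 raised the AV count to 30, and leaving out YNG V1 lowered the AA count to 18. The median difference was 0.08, 0.09 and 0.08. Among the 5 genes that load and export Wnt proteins, 0, 1 and 1 were called, in the order AV, AA and ADQ that is kept for the other lists. Tmed2, a cargo carrier of the early secretory path, was lower in AA by 0.34 on the log2 scale (limma adjusted p = 0.0615) and in ADQ by 0.28 (adjusted p = 0.0904). Porcn, the enzyme that adds the lipid to Wnt proteins, was not called (-0.20, -0.13 and -0.13). With every rat at the same total Tmed2 no longer passed (-0.19, p = 0.0543, and -0.14, p = 0.137).

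Of 19 Frizzled receptors and co-receptors, 6 were called for AV (5 higher), 5 for AA (4 higher) and 7 for ADQ (2 higher). Fzd6, a receptor used in planar polarity, averaged 71.5 ± 20.3 (YNG), 106 ± 30.7 (AV), 98.2 ± 23.97 (AA) and 111 ± 15.5 (ADQ). Its differences were 0.55 (limma adjusted p = 0.0485), 0.46 (adjusted p = 0.0763) and 0.66 (adjusted p = 0.0193). Reck, which helps Wnt7 ligands signal in brain vessels, averaged 221 ± 81.6 in YNG and 330 ± 91.9 in AV, with differences of 0.60, 0.56 and 0.55 (adjusted p = 0.0536, 0.0576 and 0.0481). Fzd2 went the other way in ADQ, at 166 ± 35.4 against 251 ± 60.3 in YNG (-0.57, adjusted p = 0.0193). It was lower in ADQ than in AV as well (-0.39, p = 0.00602, adjusted p = 0.352).

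Of 8 tested genes for R-spondins, their Lgr receptors and receptor turnover, 1, 3 and 1 were called. Rspo3, an amplifier of Wnt signals, was lower in AV (-0.36, limma p = 0.0218) and AA (-0.32, p = 0.0430), at 211 ± 58.8 and 216 ± 54.2 against 265 ± 52.3 in YNG. Rspo2, of the same family, was higher in ADQ, at 1112 ± 297 against 792 ± 237 (0.51, p = 0.0235), and higher there than in AV (0.44, p = 0.0394). Without the 4 rats that stood apart the latter was 0.29 (p = 0.138). None of these passed adjustment. Rspo3 no longer passed with every rat at the same total (-0.25 and -0.17), nor without the 4 rats that stood apart (-0.25, p = 0.0546, and -0.19, p = 0.145).

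Of 14 tested inhibitors outside the cell, 2, 4 and 4 were called, 1, 3 and 4 of them higher. Notum, which removes the lipid from Wnt proteins and is itself a Wnt target, averaged 27.2 ± 11.4 (YNG), 41.7 ± 11.7 (AV), 45.4 ± 7.98 (AA) and 36.7 ± 13.1 (ADQ). Its differences were 0.67, 0.82 and 0.48 (limma adjusted p = 0.0508, 0.0255 and 0.109), the last turning to -0.17 within the second series. Dkk3, a Dickkopf family member whose action on Wnt signaling was not measured here, was higher in ADQ, at 5314 ± 884 against 3907 ± 936 (0.47, adjusted p = 0.0266). Wif1, which binds Wnt proteins directly, was higher in ADQ at 107 ± 9.73 against 80.3 ± 20.2 (0.44, adjusted p = 0.0338). Dkk3 and Wif1 were also higher in ADQ than in AV, by 0.30 (p = 0.0170, adjusted p = 0.436) and 0.35 (p = 0.00641, adjusted p = 0.358). Without the 4 rats that stood apart Dkk3 no longer passed there (0.25, p = 0.0564), and Notum in AA had an adjusted p of 0.0585 (0.76).

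Of 27 tested transducers in the cytoplasm, 2, 8 and 7 were called and none passed adjustment. Prickle1, a planar polarity protein, was lower in AV (-0.24, limma p = 0.00544) and AA (-0.21, p = 0.0150). Tnks2, a tankyrase that promotes loss of Axin, was lower in AV (-0.20, p = 0.0482) and AA (-0.32, p = 0.00276). Neither passed in AV or AA with every rat at the same total, where Prickle1 gave -0.14 and -0.062 and Tnks2 -0.095 and -0.17. Without the 4 rats that stood apart Prickle1 in AA gave -0.12 (p = 0.0536) and Tnks2 in AV -0.16 (p = 0.0864).

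Of 15 nuclear factors, 3, 5 and 4 were called, against 21.3%, 26.6% and 28.1% of all genes. Tle4, a co-repressor that binds TCF/LEF factors, passed adjustment in all 3 comparisons, at 1058 ± 83.5 (YNG), 1233 ± 117 (AV), 1243 ± 113 (AA) and 1335 ± 53.8 (ADQ). Its differences were 0.22, 0.23 and 0.34 (limma adjusted p = 0.0268, 0.0295 and 0.000929). Lef1, a transcription factor that acts with beta-catenin and is itself a target, averaged 49.4 ± 13.1 (YNG), 107 ± 52.1 (AV), 77.6 ± 21.4 (AA) and 71.0 ± 18.2 (ADQ). Its differences were 0.99, 0.64 and 0.52 (adjusted p = 0.00483, 0.0596 and 0.0972), and ADQ was below AV by 0.47 on the log2 scale (p = 0.0228, adjusted p = 0.461). Lef1 is also made by brain endothelium and T cells, and the markers of those cells are given here for the same comparisons. Of all genes, 10.6%, 12.6% and 13.5% were called higher than in YNG in AV, AA and ADQ. Of 8 tested endothelial markers, 8, 3 and 1 were called higher. The summed endothelial levels were 1690 to 5917 (YNG), 2959 to 16124 (AV), 3052 to 4964 (AA) and 3061 to 3739 (ADQ). Of 5 tested T and NK cell markers, 4, 0 and 0 were called higher by limma at an unadjusted p of 0.05. Summed T and NK markers ran from 9.83 to 123 (YNG), 4.28 to 1317 (AV), 4.15 to 131 (AA) and 6.97 to 102 (ADQ). Between ADQ and AV, 7 of the 8 endothelial and 4 of the 5 T and NK markers were called lower and 0 higher. Of all genes, 5.9% were called lower there. The part of these cells in the Lef1 differences was not tested. Ctnnbip1, which keeps beta-catenin from TCF/LEF factors, was lower in ADQ, at 448 ± 77.5 against 585 ± 130 (-0.37, adjusted p = 0.0472), and at -0.23 (p = 0.0223, adjusted p = 0.0909) with every rat at the same total.

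Of 18 tested target and feedback genes, 7 were called for AV (all higher), 5 for AA (4 higher) and 4 for ADQ (3 higher), Lef1 and Notum among them. Of all genes, 10.6%, 12.6% and 13.5% were called higher in the same order, shares that grow with every rat at the same total. Ccnd1, the cyclin D1 gene that drives entry into the cell cycle, was lower in ADQ, at 358 ± 44.4 against 517 ± 93.5 in YNG (-0.52, limma adjusted p = 0.0138). Ccnd1 averaged 481 ± 120 in AV and was lower in ADQ than in AV (-0.40, p = 0.000788, adjusted p = 0.195). Of these 18 genes, 6 were lower in ADQ than in AV, where 5.9% of all genes were called lower. Over the 100 pathway genes the calls between ADQ and AV fell from 16 to 10 without the 4 rats that stood apart.

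**Figure D5:**
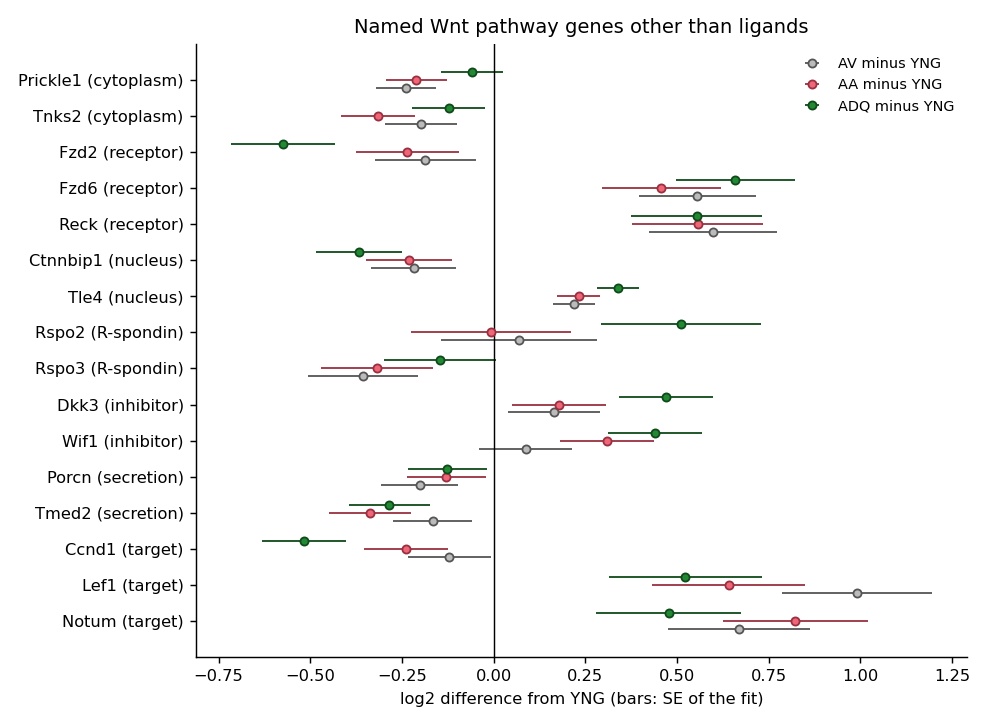
Fitted log2 differences from YNG in AV, AA and ADQ of the 16 named Wnt pathway genes that are not ligands, with bars of 1 SE of the limma fit and each gene's role in brackets. Fzd6, Reck, Tle4, Lef1 and Notum lie to the right of 0 in all 3 groups, and Ccnd1 and Fzd2 lie farthest left in ADQ (-0.52 and -0.57).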

How the data were processed

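Poly(A) RNA libraries of 44 rats were sequenced on an Ion platform and, per the labels and the study's methods, aligned by the authors to rn6 with STAR 2.5.3a in Partek Flow. The authors divided read counts by DESeq2 median-ratio size factors, left out genes with few reads, and deposited this normalized signal, which was used here as given. Treatment groups of the older rats came from the deposited attributes table. The 24694 rows of the expression table were summed to 18347 gene identifiers (13985 with 1 row), and 15598 with a mean of at least 5 were tested. Differences were fitted on log2(value + 1) in limma 3.58.1 (R 4.3.3; empirical Bayes with trend), 1 fit of 4 groups, and called at an unadjusted p of 0.05 with Benjamini-Hochberg adjusted p beside it. The fit was tested on simulated data. Permutation tests used 100000 resamples in scipy 1.17.1, two-sided like the limma tests. Intervals are the difference ± 1.96 SE.

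Members and gene lists were chosen with earlier results of these data known. Named genes were the 8 members, other ligands by value or count, genes past an adjusted p of 0.05 against YNG in each role list (at most 4; otherwise the 2 of smallest p), and the 5 most like Wnt16. Counted reads per rat were estimated from the value steps (10166556 to 24328321). They are read counts without molecular identifiers, so precision from depth covers counting error only, and p-values measure spread between rats. Alternatives were other pseudocounts, filters and scalings, the rat-number series, the highest row per gene, and leaving out each rat. The fit without the 4 rats of low granule markers was chosen after seeing the data.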

Additional observations from a re-analysis of the deposited data

Results flagged for a closer look

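In YNG, the highest Wnt9a value, 63.5 in rat V11, lay apart from the other 9 rats of the group, and so did the lowest Wnt10a value, 37.4 in rat V6. Each was farther from its neighbour, relative to the whole range, than Dixon's 95% limit for 10 samples. Chance gives such a value in about 1 in 20 groups, and only the group of 10 was small enough for this check.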

How the results depend on the processing

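The fitted differences of Wnt16 from YNG kept their direction under every alternative run, and none moved by as much as the spread between rats. Every setting below was fitted one at a time, and the cause of each change was not tested unless stated. Of the 7 other ligands, 3 were called in each comparison with YNG. In AV the count was 1 with every rat at the same total, 0 within the second rat-number series, and 0 at an adjusted p of 0.05, with 2 to 4 when 1 rat was left out. For AA it was 1 under upper quartile scaling, 1 at the same total, 1 within the first series, 0 within the second, 1 when each gene was its row of highest mean, and 0 after adjustment. Leaving out 1 rat gave 0 to 3 in AA: 0 without YNG V1, V2 or V9 or AA 3988, and 1 without YNG V3 or V12 or AA 3996, 4069, 4070 or 4077. For ADQ it was 1 within the second series, 1 after adjustment and 2 to 3 with 1 rat left out. Within a series fewer rats enter each fit. Of all genes, 3474 of 15603 in AV and 5174 in AA were called at the same total. Upper quartile scaling called 4220 of 15599 in AA. Within the second series 984, 1928 and 1077 of 15598 were called in AV, AA and ADQ, and within the first 4465 in AA. The row of highest mean gave 3934 of 15515 in AA.

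Of the 8 ligands, the single call between ADQ and AV became 2 at the same total, 0 within the first series, 0 without the 4 rats of low granule markers, and 0 after adjustment. With 1 rat left out it ran from 0 to 2: 0 without AV 3989 or ADQ 4031 or 4105, and 2 without AV 3890, 4009, 4011 or 4568 or ADQ 4006 or 4106. Without AV 4569 or 4572 it was 1, with the Wnt16 call lost and a Wnt5a (4569) or Wnt10a (4572) call gained. The single call between AA and ADQ was 0 after adjustment, and within the second series the 1 call was Wnt16 in place of Wnt7b. Of all genes, 1362 of 15603 were called between ADQ and AV at the same total and 885 of 15598 within the first series. Within the second series 648 were called between AA and ADQ.

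Of the pathway genes other than ligands, the AV count (18) was 3 within the second series, 3 after adjustment and 14 to 30 with 1 rat left out. The AA count (28) was 11, 2 and 18 to 36 in the same order. The ADQ count (26) was 41 at the same total, 11 within the second series, 8 after adjustment and 21 to 36 with 1 rat left out. For AA against AV (1) it was 4 within the first series, 2 within the second, 2 with the row of highest mean, 2 without the 4 rats, 0 after adjustment and 1 to 6 with 1 rat left out, the highest without AA 3985. For ADQ against AV (16) it was 7 and 9 within the series, 10 without the 4 rats, 0 after adjustment, and 10 to 17 with 1 rat left out, the lowest without AV 3989. For AA against ADQ (7) it was 0 after adjustment and 5 to 13 with 1 rat left out: 13 without AA 4069 or ADQ 4004, and 11 without AA 3985 or 4070 or ADQ 4105. Of 31 calls of named pathway genes against YNG, 8 were lost without some 1 rat: Rspo3 in AV and AA, Tnks2 in AV, Prickle1, Ccnd1 and Wif1 in AA, and Rspo2 and Notum in ADQ.

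Most differences that changed sign were small and uncalled. The larger shifts, Notum in ADQ against YNG and Wnt16 for AA against ADQ, are given below with the others. Against YNG, Wnt2 in AA turned to -0.11 without the 4 rats, and ran from -0.0044 to 0.29 with 1 rat left out. Wnt2 in ADQ turned to 0.014 under upper quartile scaling, 0.12 at the same total, 0.022 with the series as a covariate and 0.10 within the second series, and ran from -0.14 to 0.085 with 1 rat left out. Wnt7a in AA turned to 0.083 at the same total and 0.068 within the second series. Wnt9a turned to 0.064 in AV and 0.061 in ADQ within the second series. Wnt10a in ADQ turned to 0.024 at the same total. Notum in ADQ, a call, turned to -0.17 within the second series.

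For AA against AV, Wnt2 turned to 0.093 within the first series (-0.23 to 0.063 with 1 rat left out), Wnt4 to -0.0061 within the second (-0.020 to 0.19), Wnt7a to -0.042 within the first, Wnt7b to -0.038 within the second, and Wnt10a to -0.065 within the second. Wnt9a turned to 0.023 at the same total and 0.024 within the first series (-0.11 to 0.053). For ADQ against AV, Wnt9a ran from -0.15 to 0.0996 with 1 rat left out. For AA against ADQ, Wnt16 turned to 0.40 within the first series and 0.046 without the 4 rats, Wnt2 to -0.097 without them, and Wnt4 to 0.13 without them (-0.15 to 0.021 with 1 rat left out). Wnt5a turned to 0.037 within the second series (-0.15 to 0.0082) and Wnt9a to -0.087 (-0.12 to 0.11). The number series has no named meaning in the labels. The young rats, and the AV rats of the second series, were joined to it by assumption. Wnt16 rests on 9 to 76 reads per rat, and no paired analysis was possible because the groups share no rat numbers.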
